A study of Rattus norvegicus with 119 samples.

Results

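Low-dose pioglitazone at 90 days was represented by 9 arrays of bladder urothelium, 5 from females and 4 from males, and was set against 10 arrays from vehicle-dosed rats of the same time, 5 from each sex. These 19 arrays are part of a series of 119, of which 116 carry the submitters' mark for passing quality control. The arrays were chosen by their labels alone. Each treated group was compared with the vehicle group of its own sex, and the comparison reported for a gene is the mean of the female and the male difference. The fifth male low-dose array is marked as failing quality control and was left out.

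All animals were Sprague-Dawley rats, an outbred strain without an introduced disease model, so the groups describe healthy rats. The treated animals received pioglitazone hydrochloride by mouth at 16 mg/kg/day, and the vehicle animals received methylcellulose solution by the same route. Dosing was daily for 90 days, and the bladders were collected on the day following the final dose. The urothelium was scraped from the opened bladder with a scalpel, and each array holds RNA of 1 animal. The animals' ages are not given in the sources used here. The series also holds the same dose at 3 and 28 days with vehicle groups of their own, pioglitazone at 63 mg/kg/day and rosiglitazone maleate at 10 mg/kg/day. The high-dose and rosiglitazone groups at 90 days share the vehicle arrays used here.

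Pioglitazone and rosiglitazone are thiazolidinediones, which bind and activate the nuclear receptor PPAR-gamma. PPAR-gamma pairs with a retinoid X receptor on DNA and raises transcription of genes for fatty acid uptake, binding, storage and oxidation, best known from fat cells. The urothelium lines the bladder as a layered epithelium with basal cells below and umbrella cells facing the urine, and PPAR-gamma is one of the transcription factors of its differentiation.

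The values are normalised log2 signals, so a difference of 1 is a 2-fold change in signal. The 19 arrays had medians of 6.42 to 6.48 and each correlated with the rest of the series at a median of 0.976 to 0.984. Markers of the labelled tissue gave strong signals. Over the umbrella cell and urothelial differentiation markers the mean log2 signal of each animal lay between 12.1 and 12.5, and Upk3a, a uroplakin of the umbrella cell surface, lay between 17.64 and 18.56. RNA from the bladder wall was present too, since the mean signal over 13 smooth muscle markers ran from 7.79 to 13.5 between animals, and from 7.79 to 13.4 within the vehicle females alone. The mean over 6 erythrocyte markers ran from 10.9 to 13.7, so high signal was not limited to urothelial markers. The number of animals limits the precision of each value.

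Of 12713 genes tested, 66 (0.519%) differed from vehicle at an adjusted p under 0.05 (limma with Benjamini-Hochberg adjustment over all genes), 34 of them higher (0.267%) and 32 lower (0.252%). The genes that rose included lipid-handling genes known as PPAR targets (Fabp4, Rbp7, Plin2), the peroxisomal thiolase genes Acaa1a and Acaa1b, the carnitine palmitoyltransferase gene Cpt1c, and a set with other roles led by Rgs17, Tuba8 and Mmp24. The thiolase probes may not tell Acaa1a and Acaa1b apart. The genes that fell were led by Krt4, Rpesp, Pou3f1 and Apoe, and Pparg itself was among them. The median difference was 1.03 log2 units for the genes called higher and -0.80 for those called lower, against a median of 0.01 over all tested genes. At an unadjusted p under 0.05, 884 genes passed.

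The count depends on how the spread between animals was estimated. With all 24 groups of the series in 1 model the median standard error of a difference was 0.183, and with the 4 groups of this comparison alone it was 0.112. That smaller fit called 479 genes (3.77%), 255 higher (2.01%) and 224 lower (1.76%), with 64 of the 66 among them. Leaving out the third or the fourth treated male left 43 calls in each case.

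Rgs17 had the largest rise. It encodes a regulator that speeds the switching-off of G-protein alpha subunits. Its log2 signal in vehicle females was 5.80, 5.76, 7.22, 7.41 and 6.18, and in treated females 8.75, 9.57, 9.17, 9.35 and 8.93. In vehicle males it was 6.92, 6.24, 6.74, 6.53 and 6.35, and in treated males 9.02, 9.29, 9.06 and 8.48. The lowest treated animal stood 1.34 units above the highest vehicle animal in females and 1.56 above it in males. The mean difference was 2.54 (SE 0.29, 95% interval 1.96 to 3.12, 5.82-fold, adjusted p 5.45e-10 by limma). A second Rgs17 probe, dim at a mean signal of 4.99, gave 0.58.

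Tuba8, an alpha-tubulin isotype, was 4.45-fold higher (log2 difference 2.15, SE 0.31, limma adjusted p 1.41e-06). Vehicle females had 6.52, 6.93, 6.29, 6.59 and 7.0, and treated females 8.34, 9.70, 7.90, 9.50 and 9.03. Vehicle males had 7.12, 7.71, 7.11, 6.61 and 6.97, and treated males 9.13, 8.15, 9.57 and 9.88. All treated animals lay above all vehicle animals of their sex, with a wider spread among the treated (SD 0.76 in each sex) than among the vehicle animals (SD 0.29 in females and 0.40 in males).

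The promoters of the genes that rose most, and of the thiolase pair described next, are shown because the receptor acts through DNA sites. Each runs from 250 bases before to 50 after the gene's start, in the gene's direction, as given by RefSeq for build GRCr8. Capitals mark a match to AGGTCA, the core of a nuclear receptor site, read on either strand.
Rgs17, chr1:44729896-44730195, minus strand: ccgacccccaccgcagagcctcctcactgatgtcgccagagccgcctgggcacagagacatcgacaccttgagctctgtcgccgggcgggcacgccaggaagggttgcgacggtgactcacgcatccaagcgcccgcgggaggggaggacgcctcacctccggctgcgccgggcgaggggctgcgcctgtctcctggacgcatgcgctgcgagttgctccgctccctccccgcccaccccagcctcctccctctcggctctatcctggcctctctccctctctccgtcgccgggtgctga
Tuba8, chr4:156112022-156112321, plus strand: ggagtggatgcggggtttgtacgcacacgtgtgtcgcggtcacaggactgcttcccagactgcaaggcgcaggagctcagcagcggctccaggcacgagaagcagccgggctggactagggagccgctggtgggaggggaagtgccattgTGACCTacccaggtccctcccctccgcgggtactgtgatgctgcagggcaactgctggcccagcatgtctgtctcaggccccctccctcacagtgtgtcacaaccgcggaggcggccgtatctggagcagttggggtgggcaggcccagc
Acaa1a, chr8:127957231-127957530, plus strand: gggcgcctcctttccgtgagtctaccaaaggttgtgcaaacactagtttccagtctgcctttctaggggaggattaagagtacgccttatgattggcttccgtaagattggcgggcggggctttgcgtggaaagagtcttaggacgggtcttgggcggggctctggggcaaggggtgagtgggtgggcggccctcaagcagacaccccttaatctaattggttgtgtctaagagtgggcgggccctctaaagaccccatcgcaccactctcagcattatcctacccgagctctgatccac
Acaa1b, chr8:127759520-127759819, minus strand: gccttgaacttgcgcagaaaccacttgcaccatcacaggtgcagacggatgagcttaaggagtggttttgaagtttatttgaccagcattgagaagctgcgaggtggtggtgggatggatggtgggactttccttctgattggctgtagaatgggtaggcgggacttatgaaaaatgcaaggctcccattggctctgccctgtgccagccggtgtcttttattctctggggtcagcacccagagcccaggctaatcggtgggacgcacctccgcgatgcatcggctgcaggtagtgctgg
The only match in these windows was 1 in Tuba8, where it reads TGACCT, the reverse complement. AGGTCA or its reverse complement occurred in 1282 of the 10248 promoters available for tested genes (12.5%), in 1 of 23 promoters of genes called higher (4.35%) and in 2 of 21 of genes called lower (9.52%). A tandem pair of AGGTCA copies with 1 base of any kind between them, searched on both strands, occurred in 2 of the 10248 (0.0195%) and in 0 of 44 called genes. These letters alone are no measure of binding, and sites outside the windows were not searched.

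Acaa1a and Acaa1b encode the peroxisomal thiolases that carry out the last step of beta-oxidation of long fatty acids. They are near-identical copies on rat chromosome 8, and a probe for one may also bind transcripts of the other. In an end-to-end alignment with gaps allowed, their promoters above matched at 155 of 300 bases (51.7%). Unrelated promoters were not aligned for comparison, so this share alone does not show related sequence. Acaa1b gave 15.27, 15.70, 15.22, 15.45 and 15.10 in vehicle females and 16.40, 17, 16.69, 16.25 and 16.27 in treated females. It gave 15.86, 15.14, 14.93, 15.15 and 15.34 in vehicle males and 16.31, 17.07, 16.86 and 17.51 in treated males. The groups did not overlap in either sex, and the mean difference was 1.41 (SE 0.20, 2.66-fold, limma adjusted p 6.62e-07). Acaa1a rose by 1.37 (SE 0.19, 2.59-fold, limma adjusted p 6.62e-07) on its brighter probe. Its second probe, with a mean signal of 13.9, gave 0.15 (SE 0.0859, limma adjusted p 0.875 over all probes), while the second Acaa1b probe gave 1.52. Which of the copies rose is therefore uncertain.

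**Figure D1:**
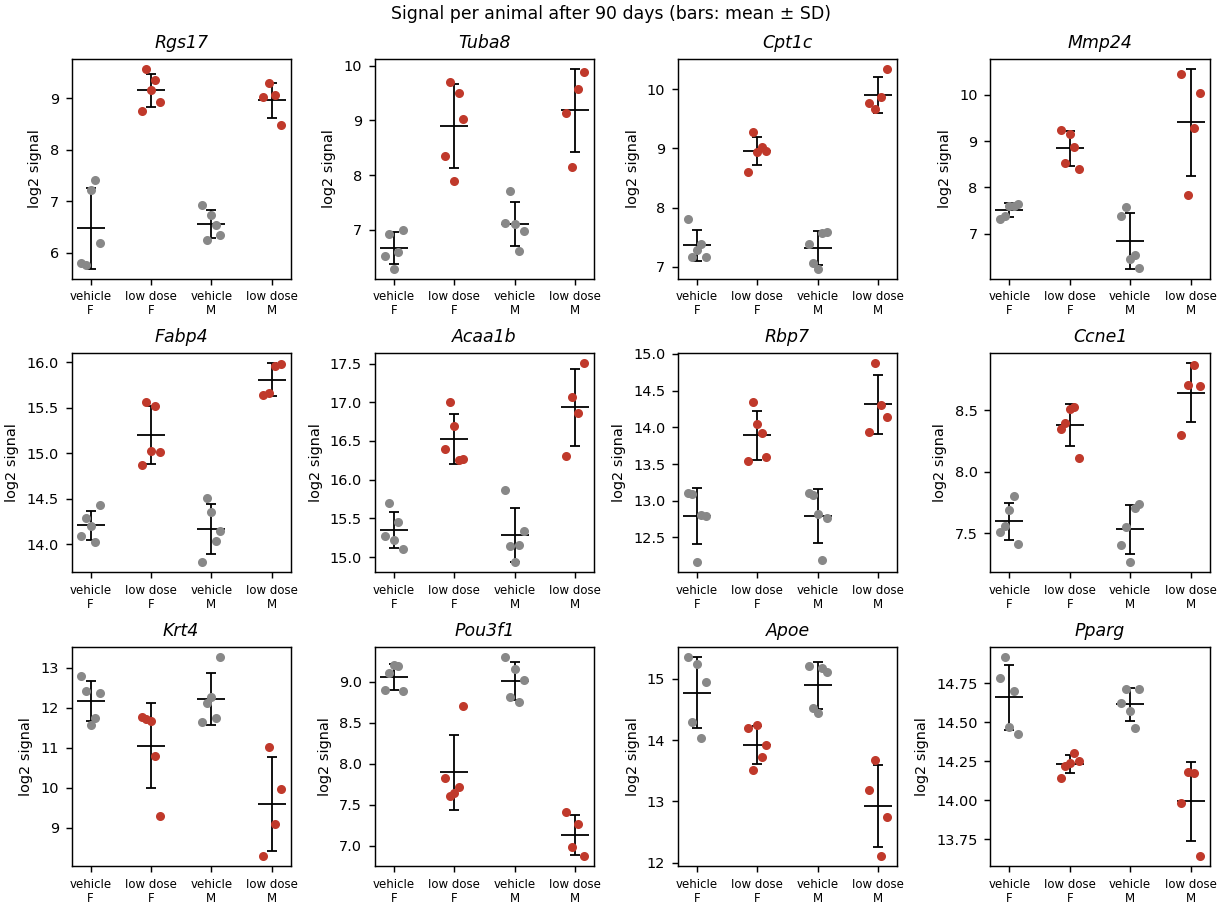
Log2 signal of 12 genes in each animal after 90 days, in vehicle (grey) and low-dose pioglitazone (red) females (F) and males (M), each point 1 animal, with horizontal lines at the mean and bars of ± SD. The treated points of Rgs17, Tuba8, Cpt1c, Mmp24, Fabp4, Acaa1b, Rbp7, Ccne1, Pou3f1 and Pparg stand clear of the vehicle points in both sexes, while those of Krt4 and Apoe overlap in females. The vertical axes differ between genes and do not start at 0.

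Among the PPAR-gamma targets and lipid droplet genes, 28 were tested, 3 rose and 0 fell, beside a background of 0.267% of all genes called higher. The list's median difference was 0.17, with 23 members above 0. By sex the median was -0.02 in females, with 0 members called, and 0.62 in males, with 3 called higher. Of all genes, 0.0315% were called higher in females and 0.102% in males. Fabp4, the fatty acid-binding protein of fat cells and macrophages, gave 14.09, 14.29, 14.20, 14.03 and 14.43 in vehicle females and 14.87, 15.56, 15.03, 15.52 and 15.01 in treated females. In males it gave 13.80, 14.51, 14.35, 14.04 and 14.15 with vehicle and 15.64, 15.66, 15.96 and 15.98 with treatment. The groups stood apart in both sexes, and the difference was 1.31 (SE 0.24, 2.49-fold, limma adjusted p 0.000543).

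Rbp7, a cellular retinol-binding protein, was 2.48-fold higher (log2 difference 1.31, SE 0.22, limma adjusted p 0.000123), with 12.16 to 13.11 in vehicle females against 13.54 to 14.35 in treated ones, and 12.20 to 13.10 against 13.94 to 14.88 in males. Plin2, a coat protein of lipid droplets, rose by 0.86 (SE 0.17, 1.81-fold, limma adjusted p 0.00218). Its difference was 1.37 in males, where the groups stood apart, and 0.35 in females, where treated animals at 12.86 to 13.08 lay within the vehicle range of 12.29 to 13.09. Fabp5, the epidermal fatty acid-binding protein, differed by 0.76 without passing the test (limma adjusted p 0.136). With the 4 groups alone, where the filter on dim genes left 27 members, 9 were called higher, Fabp5 among them, and 0 lower, beside 2.01% and 1.76% of all genes.

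Fat cells express several of these genes. Of 12 adipocyte markers tested, 0 were called, 9 lay above 0, and the list's median was 0.11. By sex the adipocyte median was -0.19 in females and 0.38 in males. Their mean signal per animal ran from 6.45 to 8.14 in vehicle females and from 6.5 to 7.62 in treated females, and from 6.64 to 7.60 and 6.92 to 8.25 in vehicle and treated males. The part of fat cells in the lipid gene results was not tested.

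Fatty acid oxidation and peroxisome genes counted 42 tested, 4 called higher and 0 lower (0.267% and 0.252% of all genes), with 37 above 0 and a median of 0.12. Acaa1a and Acaa1b were among the calls, and their probes may have read transcripts of the same copy. Cpt1c, the form of carnitine palmitoyltransferase 1 known from neurons, rose 4.27-fold (log2 difference 2.09, SE 0.22, limma adjusted p 7.65e-12, the smallest of all genes named here). Its signal was 7.81, 7.17, 7.29, 7.38 and 7.17 in vehicle females and 8.6, 9.27, 8.94, 9.03 and 8.95 in treated females. In males it was 7.38, 7.07, 6.97, 7.57 and 7.59 with vehicle and 9.76, 9.66, 9.87 and 10.34 with treatment. The gap between the groups was 0.788 in females and 2.07 in males. Crat, the carnitine acetyltransferase of mitochondria and peroxisomes, rose by 0.42 (SE 0.09, 1.34-fold, limma adjusted p 0.00247). Its treated males at 13.51 to 13.64 stood above vehicle males at 12.89 to 13.10, whereas the females overlapped. The 4 groups alone called 8 members of this list higher and 0 lower, beside 2.01% and 1.76% of all genes. The 8 again included both Acaa1a and Acaa1b. None of the 37 oxidative phosphorylation genes and none of the 20 fatty acid and sterol synthesis genes was called in the whole-series or the 4-group model.

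Genes of oxidative stress and xenobiotic metabolism were called in both directions, with 2 of 35 higher and 1 lower (0.267% and 0.252% of all genes). The 4 groups alone called 6 of 35 higher (Ces2c, Cyp3a18, Hmox1, Sod1, Akr1b1 and Akr1b8) and 2 lower (Aldh2 and Ahrr), beside 2.01% and 1.76% of all genes. Ces2c, a carboxylesterase that splits esters and amides, was 2.83-fold higher (log2 difference 1.5, SE 0.33, limma adjusted p 0.0065). Treated and vehicle animals did not overlap, at 10.19 to 11.67 against 8.72 to 9.97 in females and 11.35 to 11.82 against 9.48 to 10.56 in males. Cyp3a18, a cytochrome P450 of drug and steroid oxidation, was 2.70-fold higher (log2 difference 1.43, SE 0.30, limma adjusted p 0.00366), apart in males and overlapping in females. Aldh3a1, an aldehyde dehydrogenase of epithelia, was 2.60-fold lower (log2 difference -1.38, SE 0.35, limma adjusted p 0.0366). Vehicle females spread from 7.61 to 10.69 and treated females from 6.94 to 9.48, so the female groups overlapped widely. The Aldh3a1 call ended without any 1 of 9 arrays (vehicle females 1, 3 and 5, vehicle males 3 and 4, treated females 2 and 4, treated males 3 and 4), with the difference between -1.58 and -1.19 over all arrays left out in turn, and it was not made with the 4 groups alone.

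Retinoid-handling genes had 2 of 21 called higher and 0 lower (0.267% and 0.252% of all genes) around a median of -0.08. The 4 groups alone called 4 of 22 higher (Rbp7, Ttr, Crabp2 and Rdh12) and 1 lower (Dhrs3), beside 2.01% and 1.76% of all genes. Besides Rbp7 the second was Ttr, the carrier of thyroxine and of retinol with its binding protein, at a difference of 1.33 (SE 0.35, 2.51-fold, limma adjusted p 0.0455). Ttr was 10.01, 10.56, 9.64, 9.85 and 10.03 in vehicle males and 12.34, 12.73, 11.54 and 11.34 in treated males. In females it was 11.20, 10.48, 9.23, 11.78 and 11.67 with vehicle and 10.73, 11.20, 12.59, 11.76 and 11.53 with treatment. Males stood apart and females overlapped. The call held without vehicle female 4 or 5, vehicle male 2, treated female 1 or treated male 4, and ended without each other array, with a difference of 1.12 to 1.44. It also ended with the replicate block (limma adjusted p 0.0553), without the filter on dim genes and with failing arrays included.

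Other genes among the 15 largest rises had varied roles. Mmp24, a membrane-bound matrix metalloproteinase, gave 7.32, 7.39, 7.61, 7.60 and 7.65 in vehicle females and 9.24, 8.53, 9.15, 8.88 and 8.4 in treated females. In males it gave 7.39, 7.59, 6.45, 6.54 and 6.27 with vehicle and 10.45, 7.84, 9.28 and 10.04 with treatment. The second treated male lay close to the vehicle males and the other treated males well above, and the difference was 1.94 (SE 0.39, 3.84-fold, limma adjusted p 0.00204). Gabbr1, which encodes part of the B-type receptor for GABA, rose by 1.31 (SE 0.28, 2.48-fold, limma adjusted p 0.00366), with a difference of 2.10 in males and 0.52 in females. Its dimmer probes gave 0.85 and 0.40.

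Resp18, a protein of the secretory pathway in endocrine cells, rose by 1.31 (SE 0.30, 2.47-fold, limma adjusted p 0.00946), from 5.98 to 6.39 in vehicle males to 7.03 to 8.10 in treated males, and with overlap in females. Rundc3a, a RUN-domain protein, rose by 1.42 (SE 0.34, 2.67-fold, limma adjusted p 0.0188), apart in both sexes. Its dimmer probe gave 0.75 (limma adjusted p 0.351 over all probes). Without the fourth treated male its adjusted p was 0.0829. Sgk2, a kinase related to the serum- and glucocorticoid-regulated kinase, rose by 1.25 (SE 0.27, 2.38-fold, limma adjusted p 0.00579), again apart in both sexes. Its dimmer probe, at a mean signal of 5.23, gave 0.51. Of 8 neuronal and glial markers tested, 0 were called, with a median of -0.03 and mean levels per animal of 7.23 to 8.03 and 7.06 to 7.89 in vehicle and treated females and 7.13 to 7.57 and 7.16 to 7.91 in vehicle and treated males.

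Krt4, a keratin of the suprabasal layers of moist squamous epithelium, had the largest fall. Vehicle females gave 12.79, 12.41, 11.58, 11.75 and 12.36, and treated females 11.78, 11.73, 11.66, 10.80 and 9.30. Vehicle males gave 11.65, 12.11, 12.26, 11.75 and 13.28, and treated males 8.29, 11.01, 9.10 and 9.98. All treated males lay below all vehicle males. In females 3 treated animals lay within the vehicle range. The mean difference was -1.87 (SE 0.40, 3.66-fold lower, limma adjusted p 0.00366).

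Krt4 was the only one of 17 squamous differentiation genes called in the whole-series model, beside 0.252% of all genes called lower. The list's median was 0.06. Ivl, the cornified envelope protein involucrin, differed by 1.09 the other way without passing the test (SE 0.39, limma adjusted p 0.312). Krt1, a keratin of keratinising epidermis, differed by -0.59 (SE 0.23, limma adjusted p 0.413). With the 4 groups alone, Ivl was called higher and Krt1 and Krt4 lower, among 17 tested. Of all genes, 2.01% were called higher and 1.76% lower in that fit.

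Pou3f1, a POU-domain transcription factor known from Schwann cells and keratinocytes, fell by 1.53 on the log2 scale (SE 0.22, 2.88-fold lower, limma adjusted p 6.62e-07). Vehicle females gave 8.90, 9.11, 9.21, 9.20 and 8.89, and treated females 7.82, 7.61, 7.64, 7.71 and 8.70. Vehicle males gave 9.31, 8.82, 9.16, 8.76 and 9.02, and treated males 7.41, 6.98, 7.26 and 6.87. The groups did not overlap, although the fifth treated female came within 0.2 of the lowest vehicle female.

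Apoe, a lipid carrier made by macrophages among other cells, was 2.65-fold lower (log2 difference -1.41, SE 0.26, limma adjusted p 0.000426). Vehicle females gave 15.36, 14.30, 15.24, 14.03 and 14.94 and treated females 14.20, 13.51, 14.25, 13.73 and 13.92. Vehicle males gave 15.20, 14.52, 14.44, 15.18 and 15.11, and treated males 13.18, 13.68, 12.11 and 12.74. The males stood apart and the females overlapped in part.

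Leukocyte markers lay mostly below 0 without passing the test. Of 25 tested, 0 were called, 22 lay below 0, and the list's median was -0.36. With the 4 groups alone 3 of 26 were called lower (C1qb, Cd74 and RT1-Bb, beside 1.76% of all genes). Their mean level per animal was 9.52 to 9.94 in vehicle females and 9.30 to 9.60 in treated females, and 9.72 to 10.2 in vehicle males against 9.41 to 10.2 in treated males. C1qb, a complement component of macrophages, differed by -0.79 (SE 0.23, limma adjusted p 0.0885, and 0.0304 with the 4 groups alone), and Cd74, the invariant chain of class II antigen presentation, by -0.70 (SE 0.21, limma adjusted p 0.14, and 0.0358 with the 4 groups alone). In bulk tissue, fewer cells of a type and less RNA per cell cannot be told apart. With the leukocyte level of each array as a covariate, 54 genes were called, 47 of them among the 66, Apoe included. Of the genes named here, 7 were not called in that fit, with differences of 1.35 for Rundc3a, -1.15 for Aldh3a1, -0.93 for Prom1, -0.85 for Gpt, -0.74 for Wnt4, -0.74 for Col7a1 and -0.43 for Pparg. The covariate averages markers of several leukocyte types, so the part of macrophages in the fall of Apoe was not tested.

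Fibroblast and endothelial markers of the bladder wall were also lower without any passing the test. All 22 fibroblast and matrix markers lay below 0 with a median of -0.48, and all 12 endothelial markers with a median of -0.34. The mean fibroblast level overlapped between groups, at 8.57 to 10.9 in vehicle females, 8.09 to 10.3 in treated females, 8.37 to 9.80 in vehicle males and 8.20 to 9.53 in treated males. Endothelial levels were 7.80 to 9.37 and 7.95 to 8.47 in vehicle and treated females, and 8.13 to 8.97 and 7.80 to 8.48 in vehicle and treated males. Smooth muscle markers had 11 of 13 above 0 and a median of 0.16. Their median was -0.09 in females and 0.45 in males, and their mean level had SDs of 1.11 to 2.16 within groups. The female and male medians were -0.44 and -0.52 for fibroblast markers and -0.47 and -0.27 for endothelial markers. With the smooth muscle level of each array as a covariate, 133 genes were called, all 66 among them. The part of the other wall cells was not tested.

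**Figure D2:**
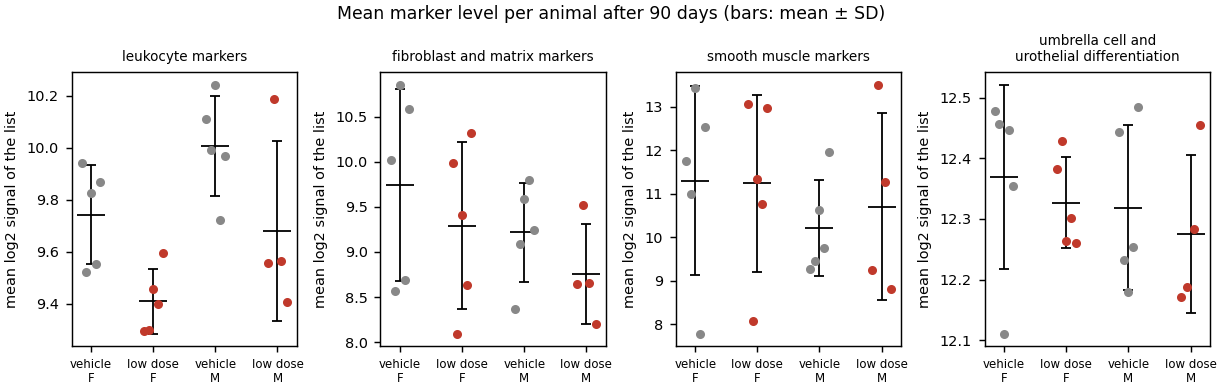
Mean log2 signal over the leukocyte, fibroblast and matrix, smooth muscle, and umbrella cell and urothelial differentiation markers in each animal after 90 days (vehicle grey, low dose red, F females, M males), with the group mean and ± SD. Treated females sit at 9.30 to 9.60 for leukocyte markers against 9.52 to 9.94 with vehicle, and smooth muscle levels spread over several units within the groups. The vertical axes differ and do not start at 0.

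The rest of the large falls had varied roles. Rpesp, whose function is not described here, fell by 1.62 on the log2 scale (SE 0.31, 3.07-fold lower, limma adjusted p 0.000874). Its treated males at 7.32 to 7.80 lay below vehicle males at 9.10 to 10.47, and the females overlapped, at 8.6 to 8.96 against 8.62 to 10.56. Cracr2b, a regulator of store-operated calcium entry, fell by 1.03 (SE 0.17, 2.04-fold lower, limma adjusted p 5.42e-05). It had tight groups, with 10.63 to 11.24 against 9.77 to 10.17 in vehicle and treated females and 10.81 to 11.08 against 9.69 to 10.02 in males. Gpt, the alanine aminotransferase that links amino acid and glucose metabolism, was 2.02-fold lower (log2 difference -1.02, SE 0.23, limma adjusted p 0.00981), also without overlap. It was the only one of 24 glucose handling and insulin signalling genes called, beside 0.252% of all genes called lower. The 4 groups alone also called Pik3r1, a regulatory subunit of phosphoinositide 3-kinase, lower (-0.67, limma adjusted p 0.00715). That made 2 of the 24 lower and 0 higher, beside 1.76% and 2.01% of all genes.

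S100a1, a calcium-binding protein, fell by 0.98 on the log2 scale (SE 0.20, limma adjusted p 0.00218) and Gfra1, the receptor subunit for the growth factor GDNF, by 0.86 (SE 0.19, limma adjusted p 0.00936). Both stood apart in both sexes, although Gfra1 was dim, at 5.56 to 6.59 in treated animals. Prom1, the surface protein CD133 of progenitor and epithelial cells, fell by 1.16 (SE 0.27, limma adjusted p 0.0109), and its second probe gave the same difference of -1.16. Tspan11, a tetraspanin, fell by 1.26 (SE 0.25, limma adjusted p 0.00218), and Lhfpl2, a membrane protein of the tetraspan superfamily, by 0.91 (SE 0.17, limma adjusted p 0.000753). The second, dim probes of Tspan11 and Lhfpl2, at mean signals of 5.23 and 5.37, gave -0.03 and -0.01.

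Wnt4, a secreted Wnt ligand, fell by 0.86 (SE 0.20, limma adjusted p 0.014). Treated males at 10.40 to 10.82 lay below vehicle males at 11.46 to 12.08, while 1 treated female at 12.06 lay near the highest vehicle female at 12.07. Clic3, an intracellular chloride channel protein, fell by 1.02 (SE 0.25, limma adjusted p 0.0244). The Clic3 call ended without vehicle female 4, vehicle male 3, treated female 4 or treated male 1 or 4, with a difference of -1.12 to -0.93 over all arrays left out in turn. Col7a1, the collagen of the anchoring fibrils under epithelia, fell by 0.84 (SE 0.22, limma adjusted p 0.048). Its call held without vehicle female 2, vehicle male 3, treated female 1 or treated male 2 or 4 and ended without each other array, with a difference of -0.93 to -0.75. It ended in 6 of 13 other settings too, the replicate block among them (limma adjusted p 0.0534).

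The receptor's own transcript was slightly lower. Pparg gave 14.78, 14.92, 14.47, 14.70 and 14.42 in vehicle females and 14.14, 14.22, 14.24, 14.30 and 14.25 in treated females. It gave 14.62, 14.71, 14.57, 14.46 and 14.71 in vehicle males and 13.98, 14.18, 14.17 and 13.64 in treated males. Every treated animal lay below every vehicle animal of its sex. The difference was -0.52 (SE 0.14, 1.44-fold lower, limma adjusted p 0.046). The call is at the threshold: it held without vehicle female 3 or 5, vehicle male 4 or treated male 2, and ended without each other array, with a difference of -0.56 to -0.47. It was made with the 4 groups alone. It ended with 75th percentile centring, without the filter on dim genes, with eBayes without a trend, with failing arrays included, with the replicate block (limma adjusted p 0.0505) and with the leukocyte covariate.

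Rxra, its usual partner, differed by -0.33 without passing the test (SE 0.29, limma adjusted p 0.978), with overlap in both sexes. Rxrb, a related receptor, differed by -0.25 (SE 0.10, limma adjusted p 0.414). Among 16 PPAR receptors and coregulators Pparg was the only call, beside 0.252% of all genes called lower. Of the 16, 14 lay below 0, and the median was -0.12.

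Urothelial differentiation genes as a group lay close to 0. Of 30 tested, Pparg was the only call, beside 0.252% of all genes called lower. The median was -0.02, with 14 above and 16 below 0. Upk3a differed by 0.29 (SE 0.14, limma adjusted p 0.7) and Krt19, a keratin of simple epithelia, by 0.35 (SE 0.17, limma adjusted p 0.673). Rab27b, which moves uroplakin vesicles to the surface, differed by -0.41 (SE 0.16, limma adjusted p 0.404). The 4 groups alone called 3 of 29 members lower (Rab27b, Mal and Pparg) and 0 higher, beside 1.76% and 2.01% of all genes. None of 14 basal markers passed, around a median of -0.18. Krt15, a basal keratin, differed by -0.50 (SE 0.17, limma adjusted p 0.282) and Cdh3, the cadherin of basal cells, by -0.71 (SE 0.29, limma adjusted p 0.513). The 4 groups alone called 3 of the 14 basal markers lower (Krt15, Cdh3 and Tp63) and 0 higher, beside 1.76% and 2.01% of all genes.

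Ccne1, the cyclin that drives entry into DNA synthesis, was the single call among 31 cell cycle genes, beside 0.267% of all genes called higher. It gave 7.51, 7.56, 7.69, 7.80 and 7.41 in vehicle females and 8.35, 8.4, 8.51, 8.53 and 8.11 in treated females. Males gave 7.40, 7.55, 7.26, 7.70 and 7.74 with vehicle and 8.30, 8.71, 8.87 and 8.70 with treatment. The groups did not overlap, and the difference was 0.95 (SE 0.23, 1.93-fold, limma adjusted p 0.0215). Without the third or the fourth treated male the adjusted p missed the threshold, and the highest was 0.0673.

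No other cell cycle gene passed. The list's median was 0.15, with 27 members above 0. Tyms, the thymidylate synthase of DNA synthesis, differed by 0.61 (SE 0.24, limma adjusted p 0.415) and E2f1, the transcription factor upstream of it, by 0.56 (SE 0.24, limma adjusted p 0.538). Ccnd1, the cyclin of the growth factor response, differed by -0.51 (SE 0.23, limma adjusted p 0.603). With the 4 groups alone, Ccne1, Tyms and E2f1 were called higher and Ccnd1 lower, among 30 tested. Of all genes, 2.01% were called higher and 1.76% lower in that fit.

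**Figure D3:**
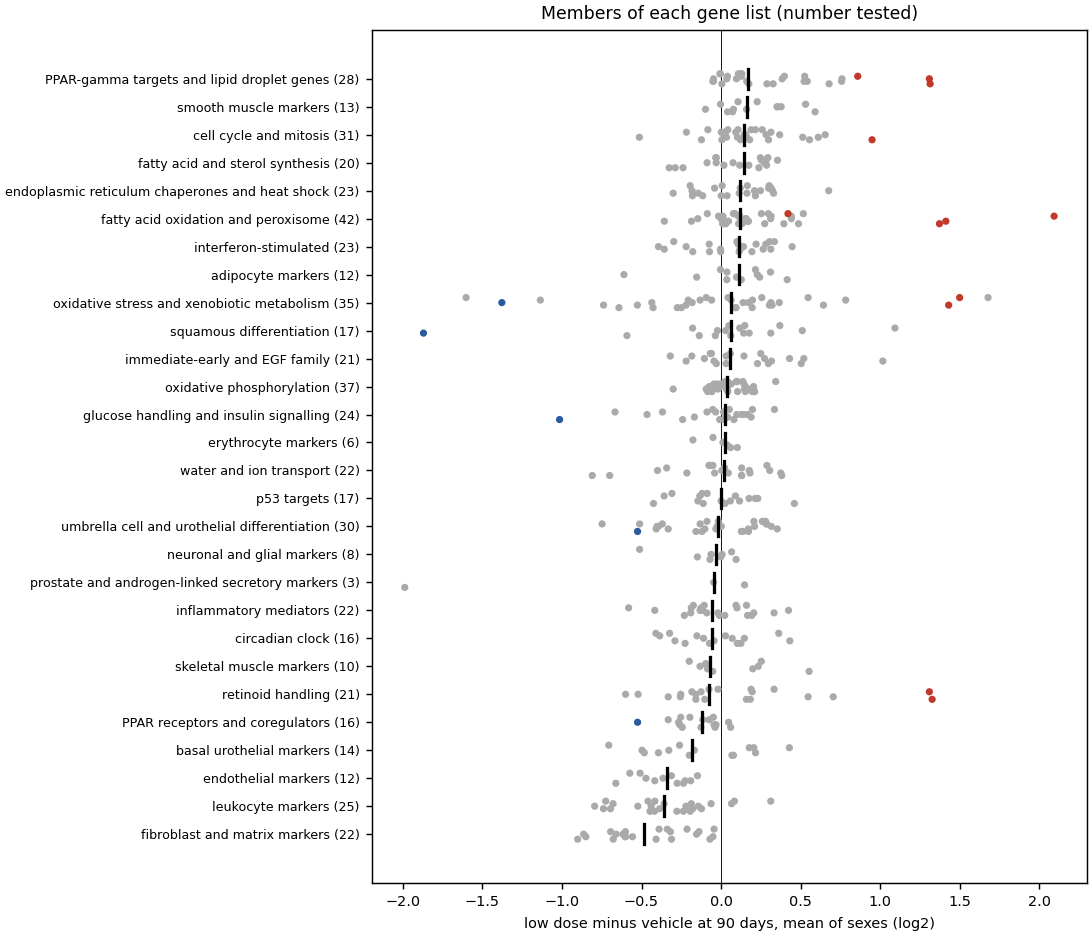
Log2 difference between low dose and vehicle at 90 days (horizontal axis, mean of both sexes) for the tested members of 28 gene lists, with the number tested in parentheses and lists ordered by their median (black bar). Red points were called higher and blue points lower at an adjusted p under 0.05 (limma), and grey points were not called. The fibroblast, leukocyte and endothelial lists lie lowest, with medians of -0.48, -0.36 and -0.34 and 0 calls.

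No member was called in the lists for immediate-early and EGF family genes, inflammatory mediators, interferon-stimulated genes, p53 targets, water and ion transport, the circadian clock, or chaperones and heat shock in the whole-series model. The 4 groups alone called 1 gene in each of 5 of these lists, which held 18 to 23 tested members. Of all genes, 2.01% were called higher and 1.76% lower in that fit. The chemokine gene Cxcl16 and the clock gene Cry1 were higher. The immunoproteasome subunit gene Psmb9, the sodium pump subunit gene Atp1b1 and the stress-response factor gene Atf4 were lower. Areg, the EGF receptor ligand amphiregulin, differed by 1.02 (SE 0.33, limma adjusted p 0.211), and its treated males spread with an SD of 1.37. Skeletal muscle, erythrocyte and prostate markers also had 0 calls. The mean of the 3 tested prostate markers was 5.94 to 9.02 in vehicle males and 5.84 to 6.21 in treated males. In females it was 5.77 to 6.39 with vehicle and 5.90 to 7.21 with treatment.

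Within each sex the test had less power. In females 5 genes were called (0.0393%), 4 higher (0.0315%) and 1 lower (0.00787%). In males 22 were called (0.173%), 13 higher (0.102%) and 9 lower (0.0708%). All 66 called genes had the same sign in both sexes, against 63.7% of all tested genes, and the male difference was the larger in 57 of them, against 49.9% of all genes. Both sexes entered the comparison that chose these genes, so the shared sign is partly fixed by that choice. The female and male differences were compared directly, and 0 genes passed (limma, 148 at an unadjusted p under 0.05). The smallest p belonged to Col11a2, a chain of a cartilage collagen that was not among the 66, with -1.44 in females and 0.53 in males (unadjusted p 0.000613, limma adjusted p 1). Of the called genes described above, Plin2 (1.37 in males, 0.35 in females, unadjusted p 0.004), Lhfpl2 (-1.42 and -0.41, unadjusted p 0.0044) and Gabbr1 (2.10 and 0.52, unadjusted p 0.005) had the smallest p values, all with an adjusted p of 1 (limma).

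**Figure D4:**
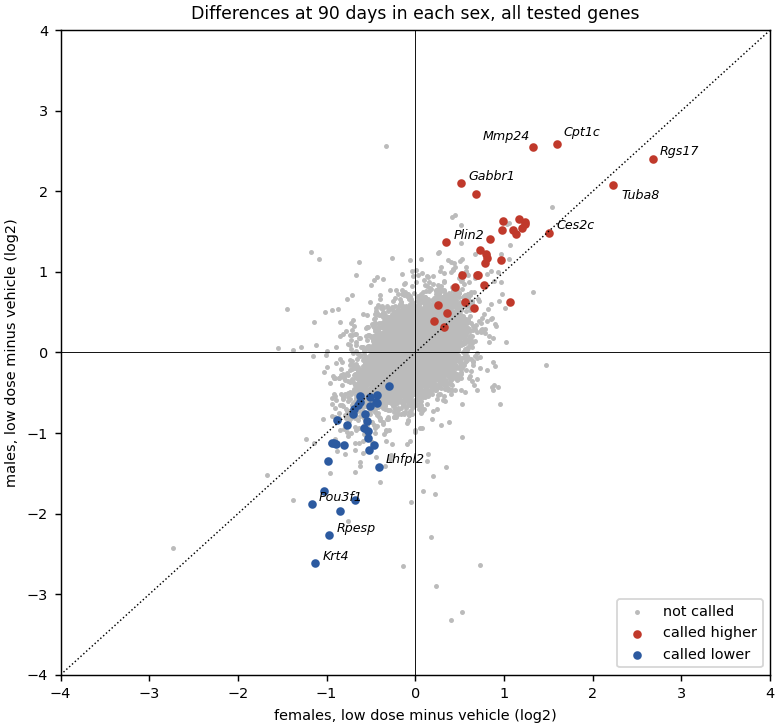
Log2 difference between low dose and vehicle at 90 days in females (horizontal axis) and males (vertical axis) for 12713 tested genes, with called genes in red (higher) and blue (lower) and the dotted line at equal differences. All 66 called genes lie in the quadrants of shared sign, and 57 of them have the larger difference in males.

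In 35 of the 66 called genes, treated and vehicle animals did not overlap in either sex. Over all tested genes this held for 0.315% in the higher and 0.267% in the lower direction. The same arrays chose the 66 genes, so their separation is partly fixed by that choice. Within females alone the groups stood apart for 1.34% of all tested genes in the higher and 1.1% in the lower direction, and within males alone for 3.34% and 2.56%. By the smaller of the female and male gaps, the widest separations were those of Rgs17, Cpt1c, Cracr2b, Acaa1b, Fabp4, Tuba8, Rbp7 and Acaa1a. For Acaa1a on its brighter probe, the last of these, the gaps were 0.604 in females and 0.366 in males.

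The same dose had been given for 3 and 28 days, each with vehicle animals of its own. At 3 days 3 genes were called (0.0236%), 2 higher (0.0157%) and 1 lower (0.00787%). At 28 days 44 were called (0.346%), 20 higher (0.157%) and 24 lower (0.189%). Acaa1a and Acaa1b, each read on its brighter probe, were called at all 3 times. Which of the copies rose is uncertain, as described above. Acaa1b was 1.11 above vehicle at 3 days, 1.22 at 28 days and 1.41 at 90 days, and Acaa1a 1.15, 1.22 and 1.37. Of the 66 genes called at 90 days, 18 (27.3%) were also called at 28 days in the same direction, which is 40.9% of the 44 called then.

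Other genes had larger differences at later times. Rgs17 was 0.60, 1.60 and 2.54 above vehicle at 3, 28 and 90 days, Cpt1c 0.87, 1.32 and 2.09, and Tuba8 0.32, 1.33 and 2.15. Krt4 stood at -0.03, -0.94 and -1.87, and Pou3f1 at -0.37, -1.23 and -1.53. Ttr stood at 1.28, 1.41 and 1.33, and Mmp24 at -0.32, 1.43 and 1.94. Resp18 was alone among the 15 largest rises in having the opposite sign at 28 days, with 0.16, -0.24 and 1.31.

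Over the 66 genes, 64 had the same sign at 28 as at 90 days (60.0% of all tested genes) and 53 the same sign at 3 days (68.1% of all). The difference was larger at 90 than at 28 days in 64 of them, but they had been chosen at 90 days, which favours that order. The tests of the change between times called 0 genes against 3 days (limma, 364 at an unadjusted p under 0.05) and 0 against 28 days (377). Rgs17 came nearest among the genes compared with 3 days, with an increase of 1.94 (SE 0.41, limma adjusted p 0.0825). Against 28 days Fkbp8, an FK506-binding protein, had the smallest p, at -0.65 (SE 0.14, limma adjusted p 0.149), and Resp18 stood at 1.55 (SE 0.42, limma adjusted p 0.997).

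**Figure D5:**
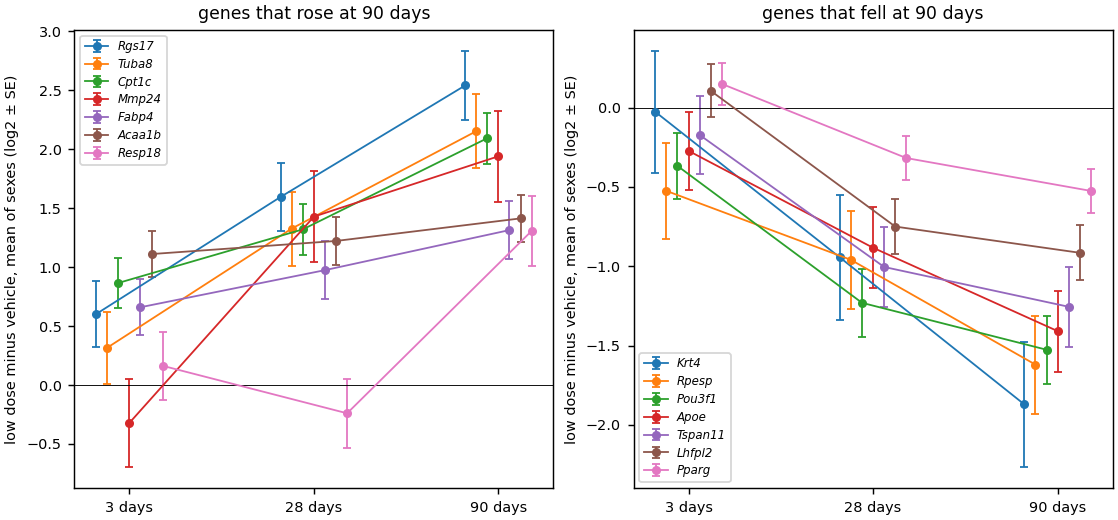
Log2 difference between low-dose pioglitazone and vehicle (vertical axis, mean of both sexes, bars ± SE of the limma fit) after 3, 28 and 90 days for genes that rose (left) or fell (right) at 90 days, with points offset sideways for legibility. Acaa1b stands at 1.11 already at 3 days, whereas Rgs17 goes from 0.60 to 2.54 and Krt4 from -0.03 to -1.87.

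At 90 days the higher dose of 63 mg/kg/day gave 539 calls (4.24%) against the same vehicle animals, 236 higher (1.86%) and 303 lower (2.38%). Rosiglitazone at 10 mg/kg/day gave 244 (1.92%), 69 higher (0.543%) and 175 lower (1.38%). For Rgs17 the difference from vehicle was 2.54 with the low dose, 2.84 with the high dose and 2.58 with rosiglitazone. For Cpt1c these were 2.09, 2.27 and 1.63, for Fabp4 1.31, 1.63 and 1.02, for Acaa1b 1.41, 1.75 and 1.05, and for Tuba8 2.15, 1.99 and 1.46. Among genes that fell, Krt4 stood at -1.87, -2.44 and -1.20, Apoe at -1.41, -1.36 and -1.04, Pparg at -0.52, -0.78 and -0.63, and Aldh3a1 at -1.38, -2.32 and -2.0.

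The treated groups were also set against each other without vehicle. High minus low dose called 0 genes (limma, 444 at an unadjusted p under 0.05). The smallest p belonged to Chordc1, a partner of the HSP90 chaperone, which was 0.53 higher with the high dose (SE 0.13, limma adjusted p 0.711). A p that misses the threshold does not show that the doses act alike. Rosiglitazone minus low-dose pioglitazone called 3 genes (0.0236%), 1 higher (0.00787%) and 2 lower (0.0157%). Igf2bp2, which binds messenger RNAs of growth factors, was 0.75 higher with rosiglitazone (SE 0.16, limma adjusted p 0.042). Ddx5, an RNA helicase, differed by -0.66 (SE 0.12, limma adjusted p 0.00966), and Srsf5, a splicing factor, differed by -0.87 (SE 0.18, limma adjusted p 0.0187).

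Only Igf2bp2 among these was called against vehicle at the low dose, at -0.76 (SE 0.16, limma adjusted p 0.00366), with group means of 9.22 and 8.69 in vehicle and treated females and 9.13 and 8.16 in males. Its dimmer probe gave -0.37 (limma adjusted p 0.994 over all probes). Ddx5 and Srsf5 differed from vehicle by 0.02 and -0.29 at the low dose. The doses in mg/kg differ between the compounds, and with only the 4 treated groups in the model 0 genes were called (limma, 1639 at an unadjusted p under 0.05).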

How the data were processed

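RNA of scraped urothelium was labelled with Cy3 and hybridised to 1-colour Agilent arrays, 1 rat per array. Values were deposited by the authors as normalised log2 signals, and the submitters' processing notes name limma without its role. Sources used here do not give the background correction or normalisation method. Detection flags were not used. Of 30367 probes, 20369 carried a gene symbol, brought up to date through RefSeq accessions (17245 matched), and each of 16951 genes was represented by its probe of highest mean signal. A gene was tested if its mean signal was above the lowest 25 percent of genes (5.26).

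A model with 1 mean for each of the 24 groups of sex, treatment and time was fitted to the 116 arrays passing quality control with limma 3.58.1 under R 4.3.3 (trended eBayes after lmFit and contrasts.fit, with 92 residual degrees of freedom). P-values were adjusted by Benjamini-Hochberg over all tested genes and called under 0.05. Named genes were the 15 largest rises and falls among called genes of equal sign in both sexes, at most 4 members per list by smallest p, Pparg and Rxra, up to 5 called genes per direction (or the 3 of smallest p) of each further contrast, and the 8 with the widest gaps. Predicted loci were passed over. List members named only for a call with the 4 groups alone (such as Hmox1, Crabp2, Mal and Atf4) were chosen after their values were seen. The comparison and the gene lists were chosen with earlier results of these data known, so lists are described by counts and medians without a test. Replicates are separate animals. Alternatives covered scaling, filters, probe choice, array weights, failing arrays, a replicate block, marker covariates, the groups in the fit and leaving out each array.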

Additional observations from a re-analysis of the deposited data

Results flagged for a closer look

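In 14 of 304 groups of values of the named genes tested for a single distant animal, the highest or lowest animal stood apart by Dixon's criterion, which chance meets in about 1 of 20 groups. The second treated male was highest for Cd74 (13.68) and RT1-Db1 (12.37), a class II antigen presentation gene, and lowest for Tyms (7.60) and Rab27b (10.92). Irak3 was lowest in treated male 3 (8.51). The fifth treated female was highest for Pou3f1 (8.70) and for Vwf (9.62), the von Willebrand factor of endothelium. Irf1, an interferon-regulated transcription factor, was highest in vehicle animals female 3 (12.19) and male 3 (12.34) and lowest in treated female 1 (11.12). Among vehicle animals, Akr1b8, an aldo-keto reductase chosen after its values were seen, was highest in female 5 (13.19), Krt1 in female 4 (7.26) and Aqp1, a water channel, in male 4 (11.81), and RT1-Db1 was lowest in female 2 (11).

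The treated male array that failed quality control was not used above. Its median log2 signal was 7.196, and its median correlation with the 9 other male arrays at 90 days was 0.405. On it, 36 of the 66 called genes lay outside the range of the vehicle males in the called direction (54.5%), against 41.1% of all tested genes in the direction of their own difference. By direction this held for 10 of the 34 called higher (29.4%, against 33% of all genes above 0) and 26 of the 32 called lower (81.2%, against 50.2% of all genes below 0). The vehicle males also entered the comparison that chose the called genes, so these shares are not independent of that choice. The array had Rgs17 at 11.34, Cpt1c at 9.58, Fabp4 at 14.51 and Krt4 at 8.76. Its higher median was not corrected for.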

How the results depend on the processing

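Of 43 called genes named, 36 stayed called without each of the 19 arrays in turn and 12 in all other settings; the exceptions Rundc3a, Ttr, Aldh3a1, Clic3, Col7a1, Ccne1 and Pparg are described above. Against 66 genes called, array weights gave 1728, the 4 groups alone 479, a smooth muscle covariate 133, and failing arrays included 17. Leaving out 9 arrays elsewhere in the series whose median correlation was under 0.95, an alternative chosen after seeing the data, gave 242, and leaving out each of the 19 arrays gave 43 to 76. Females (5 called) gave 421 with array weights, 61 with 4 groups, 27 without the 9 arrays, and 3 with 75th percentile centring or failing arrays included; leaving out each array gave 3 to 6. Males (22 called) gave 723, 155, 92 and, with the smooth muscle covariate, 42; leaving out each array gave 9 to 23, with 9 without treated male 3 and 14 without treated male 4. Tests that called 0 gave, with array weights, 2 for the difference between sexes, 48 against 3 days, 2 against 28 days and 79 for high minus low dose. Against 3 days the smooth muscle covariate gave 3, the fit without the 9 arrays 3 and the fit of the groups compared 4; against 28 days the smooth muscle covariate gave 1. Rosiglitazone minus low dose (3 called) gave 944, 5, 6, 0 and 0 with array weights, the smooth muscle covariate, without the 9 arrays, with only the groups compared and with failing arrays included. With failing arrays included the differences of Rxra (0.17), Upk3a (-0.095), Krt19 (-0.20) and the called gene Acad9 (-0.19) turned sign, and the Lhfpl2 change from 3 to 90 days became 0.13 with the probe of largest variance. The cause of these shifts was not tested.

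The comparison did not treat animals of the same replicate number as pairs. Deviations of animals with the same number correlated at a median of 0.019 over 27 pairs (-0.598 to 0.461), against -0.028 over 108 other pairs (-0.621 to 0.641). With spreads this wide, these values cannot exclude a factor shared by number. With the replicate block 60 genes were called, 59 of them among the 66. Of the called genes named, Ttr, Col7a1 and Pparg lost their call.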

Other observations

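Further genes among the 66 have roles not covered above. They were chosen after their values were seen, from called genes outside the 15 largest rises and falls whose call held without each of the 19 arrays in turn. Ramp1, the co-receptor that makes the receptor for calcitonin gene-related peptide, was 1.99-fold higher (log2 difference 0.99, SE 0.19, limma adjusted p 0.000753), and its second probe gave 1.04. Treated and vehicle animals did not overlap, at 13.95 to 14.52 against 12.99 to 13.80 in females and 14.34 to 14.82 against 12.74 to 13.77 in males. It had been called at 28 days too, at 0.95 (limma adjusted p 0.00257). Serpine2, an inhibitor of thrombin and other serine proteases, was 2.18-fold higher (log2 difference 1.12, SE 0.24, limma adjusted p 0.00565), without overlap in either sex. Lhx6, a LIM-homeobox transcription factor, rose by 1.0 (SE 0.21, limma adjusted p 0.00366), apart in males and overlapping in females. Its dimmer probe, at a mean signal of 5.33, gave -0.01.

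Fermt2, the integrin activator kindlin-2, rose by 0.59 (SE 0.11, limma adjusted p 0.000432) and Acad9, a mitochondrial protein for assembly of respiratory complex I, by 0.42 (SE 0.09, limma adjusted p 0.00277), both without overlap. With failing arrays included the Acad9 difference was -0.19. Porcn, which attaches the fatty acid that Wnt ligands need for secretion, fell by 0.66 (SE 0.14, 1.59-fold lower, limma adjusted p 0.00481). Irak3, a brake on Toll-like receptor signalling, fell by 0.70 (SE 0.15, 1.62-fold lower, limma adjusted p 0.00366), with 8.55 to 8.91 in treated against 9.13 to 9.70 in vehicle females and 8.51 to 8.71 against 9.26 to 9.64 in males. Its dimmer probe gave -0.37 (limma adjusted p 0.598 over all probes). Stat5a, a transcription factor of cytokine receptors, fell by 0.48 (SE 0.10, 1.40-fold lower, limma adjusted p 0.00366) and had been lower at 28 days as well, at -0.47 (limma adjusted p 0.012).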
